A study of Oryza sativa with 8 samples.

Results

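The cellulose synthase catalytic subunit (CESA) family of rice was described across the 4 groups of an Affymetrix rice array series. The members are all probe sets that the platform annotation pairs with exactly 1 gene, where that gene has CESA1 to CESA9 as its symbol or a synonym in the RefSeq gene table. This gave 13 probe sets for 9 genes, out of 57258 probe sets that are not controls. CESA1, CESA2, CESA3 and CESA4 had 2 probe sets each, and the other 5 genes had 1. Where a gene has 2, the first is the one with the higher mean signal, which also stands for the gene in counts of genes. The RefSeq entries are LOC4337958 for CESA1, LOC4334515 for CESA2, LOC4343049 for CESA3, LOC4324625 for CESA4, LOC4334710 for CESA5, LOC4342850 for CESA6, LOC4348853 for CESA7, LOC4342699 for CESA8 and LOC4347093 for CESA9. The genes were split into a primary wall class of 6 genes, namely CESA1, CESA2, CESA3, CESA5, CESA6 and CESA8, and a secondary wall class of 3 genes, namely CESA4, CESA7 and CESA9. Genes of the cellulose synthase-like (CSL) families are not members.

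Cellulose is made at the plasma membrane by rosette complexes built from several different CESA proteins, which join glucose from UDP-glucose into chains that crystallise as microfibrils. One set of CESA proteins works in the thin primary walls of cells that are still expanding, and another set thickens the secondary walls of vessels and fibres once expansion has ended. In rice, loss of CESA4, CESA7 or CESA9 makes the culm brittle, which ties these 3 genes to secondary walls. Submerged rice leaves can elongate, and the SUB1 locus is known for restraining this elongation.

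The groups were submerged M202(Sub1), non-submerged M202(Sub1), submerged M202 and non-submerged M202, with 2 arrays each. M202 is a japonica cultivar that does not carry Sub1A, and M202(Sub1) is the same cultivar with the introgressed SUB1 region and Sub1A. All plants were 14 d old at the start, grown in pots of soil, and the submerged ones spent 24 h fully under water that stood 90 cm deep. Whether plants were pooled for an RNA sample is not stated. RNA came from aerial tissue, so fewer cells of a type and less RNA per cell cannot be told apart in any value below. The design text calls the 2 replicates biological and independent without saying what separated them, so p-values measure the spread between these samples. The titles put non-submerged plants at day 0 and submerged plants at day 1, so the effects of submergence and of 1 more day cannot be told apart, and the labels give no harvest hour for the non-submerged plants.

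The values are log2 signals made by the authors, with a common lowest value of 2.22. A level is compared only between groups for the same probe set, because the signals of different probe sets are not on 1 scale. Differences between group means are on the log2 scale, each with the standard error (SE) of a limma fit over 34355 probe sets, n = 2 arrays per group. A probe set is called when limma's adjusted p is below 0.05, and percent of signal is the same difference on the linear scale.

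Arrays of a group correlated at 0.9976 to 0.9983 across the tested probe sets. The poly(A) spike-in controls, which are bacterial RNAs mixed into each sample before labelling, averaged 9.04 and 9.09 in submerged M202(Sub1) against 8.73 and 8.60 in non-submerged M202(Sub1), and 8.84 and 8.78 in submerged M202 against 8.62 and 8.62 in non-submerged M202. Centring on them lowers all submergence changes by 0.40 in M202(Sub1) and 0.19 in M202, the median of all tested probe sets included. It lowers all genotype differences by 0.25 in submerged and 0.045 in non-submerged plants, and all interaction values by 0.21. The 3′ signal of the GAPDH control exceeded its 5′ signal by 0.25 to 0.45 on submerged arrays and 0.12 to 0.19 on non-submerged ones, and that of actin by 0.95 to 1.17 and by 1.11 to 1.28. Of the 8 measured green leaf markers 6 were lower after submergence in each genotype, with a mean log2 signal of 11.82 to 11.85 in submerged M202(Sub1), 12.73 to 12.76 in non-submerged M202(Sub1), 12.04 to 12.08 in submerged M202 and 12.72 to 12.79 in non-submerged M202. The 8 root markers averaged 4.90 to 4.92, 5.68 to 5.69, 5.36 to 5.41 and 5.72 to 5.73 in the same groups. Of the 6 tested root markers 4 were lower and 0 higher in M202(Sub1), 1 was lower and 1 higher in M202, and 4 were lower in submerged M202(Sub1) than in submerged M202. Over all tested probe sets 21.2% were called lower after submergence in M202(Sub1) and 20% in M202. Between the submerged genotypes 10.1% were called lower in M202(Sub1). The interaction was called lower for LSI1 (-0.76), LSI6 (-1.27) and NAAT1 (-0.85), the direction of CESA1 and CESA6, where 5.93% of all tested probe sets were called lower. No root sample was measured, so whether the listed genes, LSI6 included, mark root tissue here was not tested. LSI2, PT2, PT6 and YSL15 were at or close to the lowest value. The silicon transporter LSI1 was at 9.49 to 10.23, LSI6 at 9.05 to 10.72, NAAT1 at 5.11 to 8.97 and IRT1 at 5.64 to 6.98. The hybridization controls averaged 10.37 on replicate 1 of non-submerged M202 and 10.85 to 11.08 on the other 7 arrays. Without that array 7 CESA probe sets were called lower after submergence in M202, against 9 with it, and 3 in the interaction, against 4. The part of spike-ins, RNA quality and cell makeup in the CESA results was not tested.

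After submergence most CESA genes fell in both genotypes, and no member rose. In M202(Sub1) 8 of 9 genes fell and 1 was not called, with a median change of -0.70. In M202 7 of 9 genes fell and 2 were not called, with a median of -0.63. Over all tested probe sets the median was 0 in both genotypes, and 21.2% were called lower in M202(Sub1) and 20% in M202, while 27.7% and 22.9% were called higher. Among the 22903 probe sets left by a stricter filter on low values, 31.1% were called lower in M202(Sub1) and 29.8% in M202. Over all 13 probe sets, 10 were called lower and 0 higher in M202(Sub1), and 9 lower and 0 higher in M202. At an unadjusted p below 0.05 limma also gave 0 higher in either genotype.

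CESA1, a primary wall subunit, had the largest falls of the family together with CESA6. Its first probe set had 11.05 and 11.17 in submerged M202(Sub1), against 12.67 and 12.61 in non-submerged M202(Sub1). In M202 it had 11.73 and 11.74 after submergence, against 12.77 and 12.77 without it. The submerged arrays lay below all non-submerged arrays in both genotypes, and those of M202(Sub1) lay below those of M202. CESA1 fell by 1.53 ± 0.05 in M202(Sub1), to 34.6% of the non-submerged signal, with a limma adjusted p of 1.17e-05. In M202 the gene fell by 1.03 ± 0.05, to 48.8%, with a limma adjusted p of 4.85e-05. The second CESA1 probe set, which was designed on another transcript record, fell, with -1.61 ± 0.06 in M202(Sub1) and -1.09 ± 0.06 in M202. Both probe sets thus gave the same order of the groups.

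CESA6, another primary wall subunit, had 9.83 and 9.93 in submerged M202(Sub1), against 11.40 and 11.56 in non-submerged M202(Sub1). Submerged M202 had 10.42 and 10.42, against 11.41 and 11.34 in non-submerged M202. As for CESA1, the groups formed 3 steps, with submerged M202(Sub1) lowest, submerged M202 next, and both non-submerged groups together at the top. CESA6 fell by 1.60 ± 0.07 in M202(Sub1), to 33% of the non-submerged signal, with a limma adjusted p of 3.09e-05. It fell by 0.95 ± 0.07 in M202, to 51.6%, with a limma adjusted p of 0.000237.

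CESA5 and CESA8, of the primary wall class, also fell in both genotypes, with smaller changes than CESA1. CESA5 had 9.78 and 9.76 in submerged M202(Sub1), against 10.50 and 10.45 in non-submerged M202(Sub1), and 9.98 and 9.89 in submerged M202, against 10.62 and 10.50 in non-submerged M202. CESA5 fell, with -0.70 ± 0.05 in M202(Sub1) and -0.63 ± 0.05 in M202 (limma adjusted p = 0.000262 and 0.000497). CESA8 had 11.31 and 11.20 in submerged M202(Sub1), against 12.18 and 11.91 in non-submerged M202(Sub1). In submerged M202 it had 11.50 and 11.35, against 12.15 and 12.14 in non-submerged M202. Submerged and non-submerged arrays did not overlap for either gene. CESA8 fell, with -0.79 ± 0.10 in M202(Sub1) and -0.72 ± 0.10 in M202 (limma adjusted p = 0.0022 and 0.0038).

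CESA3 and CESA2 stood apart from the other primary wall genes, with changes close to 0. On its first probe set CESA3 had 13.62 and 13.68 in submerged M202(Sub1), against 13.90 and 13.84 in non-submerged M202(Sub1), and 13.88 and 13.83 in submerged M202, against 13.86 and 13.81 in non-submerged M202. Only the submerged M202(Sub1) arrays lay below the rest. CESA3 fell by 0.22 ± 0.04 in M202(Sub1), to 85.9% of the non-submerged signal (limma adjusted p = 0.0047), and had 0.02 ± 0.04 in M202, with a 95% interval of -0.07 to 0.11. Its value in M202 was -0.17 after centring on the spike-ins (limma adjusted p = 0.0241). The second CESA3 probe set was not called in M202(Sub1), where it had -0.17 ± 0.17, or in M202, where it had -0.14 ± 0.17, and was called lower in both after centring on the spike-ins (-0.56 and -0.33, limma adjusted p = 0.00264 and 0.0457). Its arrays in submerged M202 were 11.82 and 11.33, the widest pair of any member. Without 1 array its change in M202 ranged from -0.39 to 0.10, so this probe set does not fix the change of CESA3 in M202.

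CESA2 was not called in either genotype. Its first probe set had 7.79 and 7.73 in submerged M202(Sub1), against 7.87 and 8.00 in non-submerged M202(Sub1), and 7.85 and 7.96 in submerged M202, against 7.74 and 7.94 in non-submerged M202. The groups of M202 overlapped. The 95% interval of the change ran from -0.40 to 0.06 in M202(Sub1) and from -0.16 to 0.29 in M202, so changes as large as those of CESA1 or CESA6 lie outside both, and in M202(Sub1) a fall of the size seen for CESA3 lies inside. After centring on the spike-ins CESA2 was called lower in M202(Sub1), with -0.57 and a limma adjusted p of 0.00273. The second CESA2 probe set gave 2.33 on all 8 arrays, close to the common lowest value, and carries no information on a change.

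**Figure D1:**
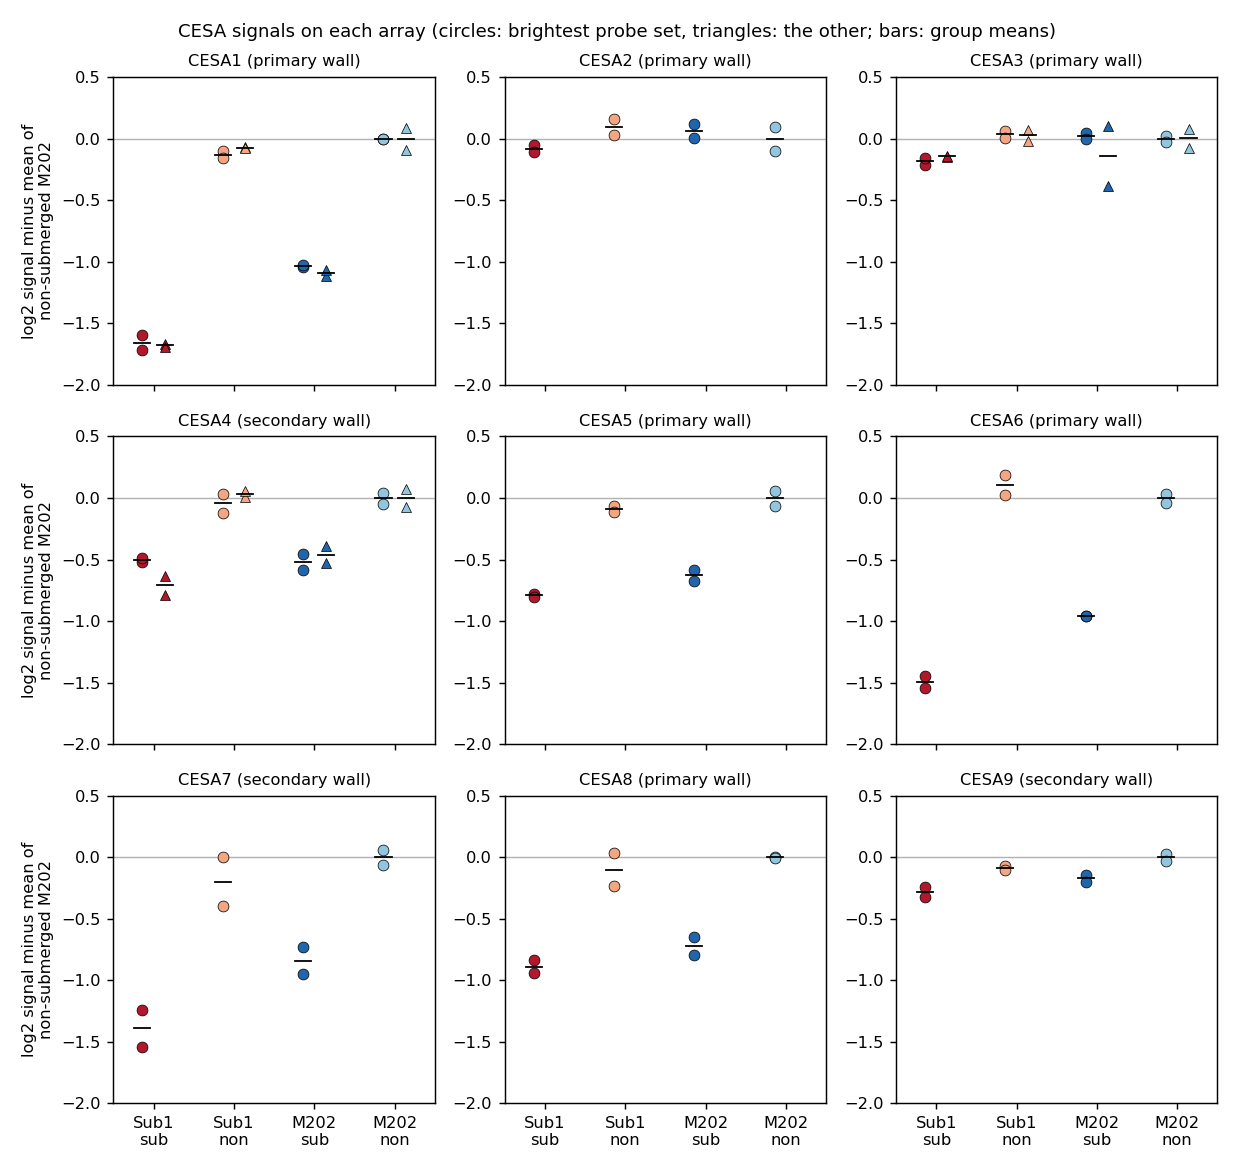
Log2 signal of each array minus the mean of non-submerged M202 (y axis), for 1 gene per panel, with the groups submerged M202(Sub1), non-submerged M202(Sub1), submerged M202 and non-submerged M202 from left to right (Sub1 stands for M202(Sub1)); the uninformative CESA2 probe set at 2.33 is not drawn. CESA1 and CESA6 show 3 steps, with submerged M202(Sub1) lowest, while CESA2, CESA3 and CESA9 stay close to 0.

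Among the secondary wall genes, CESA7 fell most. It had 10.58 and 10.28 in submerged M202(Sub1), against 11.82 and 11.42 in non-submerged M202(Sub1), and 11.09 and 10.87 in submerged M202, against 11.88 and 11.76 in non-submerged M202. Submerged arrays lay below non-submerged ones throughout, but the 2 arrays of a group differed more than for CESA1 or CESA6. CESA7 fell by 1.19 ± 0.18 in M202(Sub1), to 43.8% of the non-submerged signal, with a limma adjusted p of 0.00338. In M202 it fell by 0.84 ± 0.18, to 56%, with a limma adjusted p of 0.0149, and this call was lost without either array of non-submerged M202 or replicate 2 of submerged M202 (limma adjusted p = 0.0576 to 0.0815).

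CESA4, the second subunit of the secondary wall class, was read by a pair of probe sets that were designed on the same transcript record. The first had 10.97 and 11.00 in submerged M202(Sub1), against 11.52 and 11.37 in non-submerged M202(Sub1), and 11.03 and 10.90 in submerged M202, against 11.53 and 11.44 in non-submerged M202. CESA4 fell, with -0.46 ± 0.07 in M202(Sub1) and -0.53 ± 0.07 in M202 on the first probe set (limma adjusted p = 0.00407 and 0.00304). The second had 10.10 and 10.26 in submerged M202(Sub1), against 10.90 and 10.95 in non-submerged M202(Sub1), and 10.36 and 10.50 in submerged M202, against 10.82 and 10.96 in non-submerged M202. It fell, with -0.75 ± 0.08 in M202(Sub1) and -0.46 ± 0.08 in M202 (limma adjusted p = 0.00112 and 0.00875). The probe sets differ in which genotype had the larger fall, so CESA4 gives no single answer on that point.

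CESA9, the third secondary wall subunit, changed least of the called genes. It had 7.97 and 8.05 in submerged M202(Sub1), against 8.22 and 8.19 in non-submerged M202(Sub1), and 8.15 and 8.09 in submerged M202, against 8.32 and 8.26 in non-submerged M202. CESA9 fell, with -0.19 ± 0.045 in M202(Sub1) and -0.17 ± 0.045 in M202, to 87.4% and 89% of the non-submerged signals (limma adjusted p = 0.0181 and 0.0334). The call in M202(Sub1) was lost without 3 of the 8 arrays, both of non-submerged M202(Sub1) and replicate 1 of submerged M202(Sub1) (limma adjusted p = 0.0503 to 0.0689). The call in M202 was lost without 6 of the 8, which leaves only the submerged M202(Sub1) arrays without effect (limma adjusted p = 0.0508 to 0.129).

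**Figure D2:**
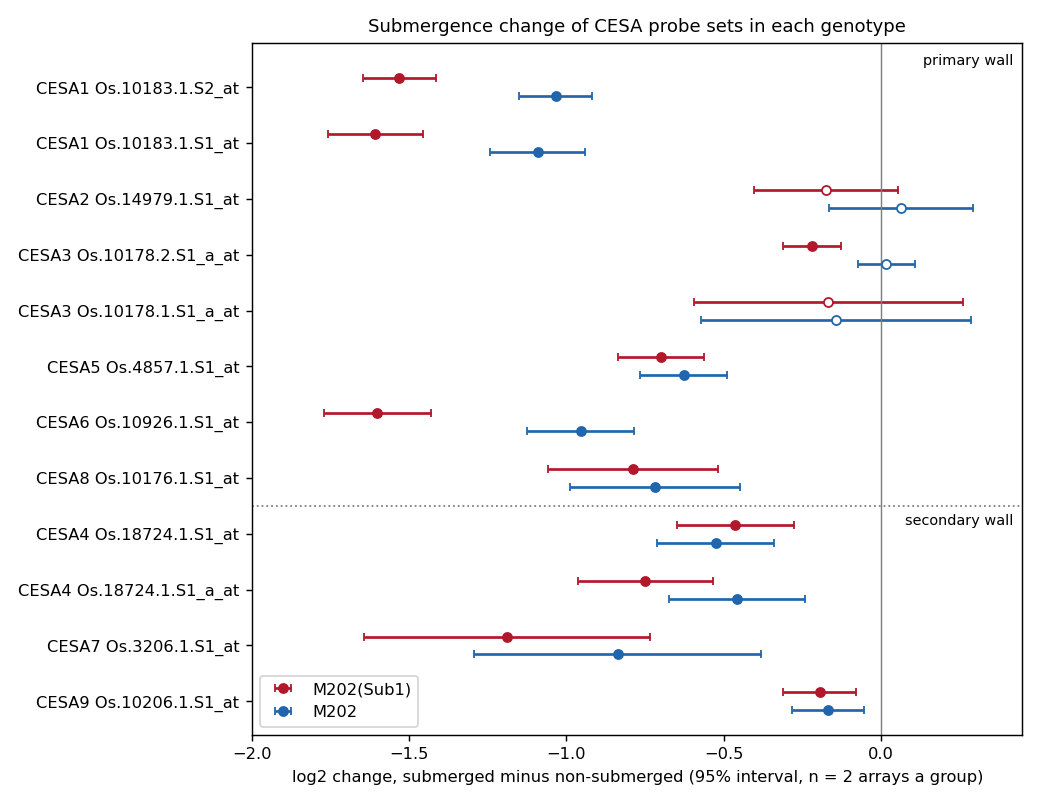
Log2 change on submergence (x axis, submerged minus non-submerged, points with 95% intervals from the limma fit, n = 2 arrays a group) for the CESA probe sets down the page, in M202(Sub1) above M202, filled where called and open where not. CESA1 at -1.53 and CESA6 at -1.60 in M202(Sub1) lie left of their M202 values, while the intervals of the genotypes overlap for CESA5, CESA8 and CESA9.

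Primary and secondary wall members were then set side by side over the 4 groups, as the mean log2 signal of each class with 1 probe set per gene. The primary wall class had 10.56 and 10.58 in submerged M202(Sub1), against 11.42 and 11.40 in non-submerged M202(Sub1), and 10.89 and 10.87 in submerged M202, against 11.43 and 11.42 in non-submerged M202. The secondary wall class had 9.84 and 9.78 in submerged M202(Sub1), against 10.52 and 10.33 in non-submerged M202(Sub1), and 10.09 and 9.96 in submerged M202, against 10.58 and 10.49 in non-submerged M202. Both classes were thus lower on every submerged array than on any non-submerged one. No p is given for these class means.

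In M202 the 2 classes had close changes, with -0.51 for the secondary and -0.54 for the primary wall class. The difference between these changes, 0.03, was smaller than the SD of 0.08 between arrays of a group in the secondary minus primary value. In M202(Sub1) the secondary wall class changed by -0.62 and the primary wall class by -0.84, a difference of 0.22. Leaving out an array of non-submerged M202(Sub1) gave 0.14 for replicate 2 and 0.30 for replicate 1. The spread within a class was wider than the gap between the classes. In M202(Sub1) the primary class ran from -1.60 for CESA6 to -0.17 for CESA2, and the secondary class from -1.19 for CESA7 to -0.19 for CESA9. In M202 the secondary class ran from -0.84 for CESA7 to -0.17 for CESA9, and the primary class from -1.03 for CESA1 to 0.07 for CESA2. Each class held both strongly lowered genes and genes close to 0.

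**Figure D3:**
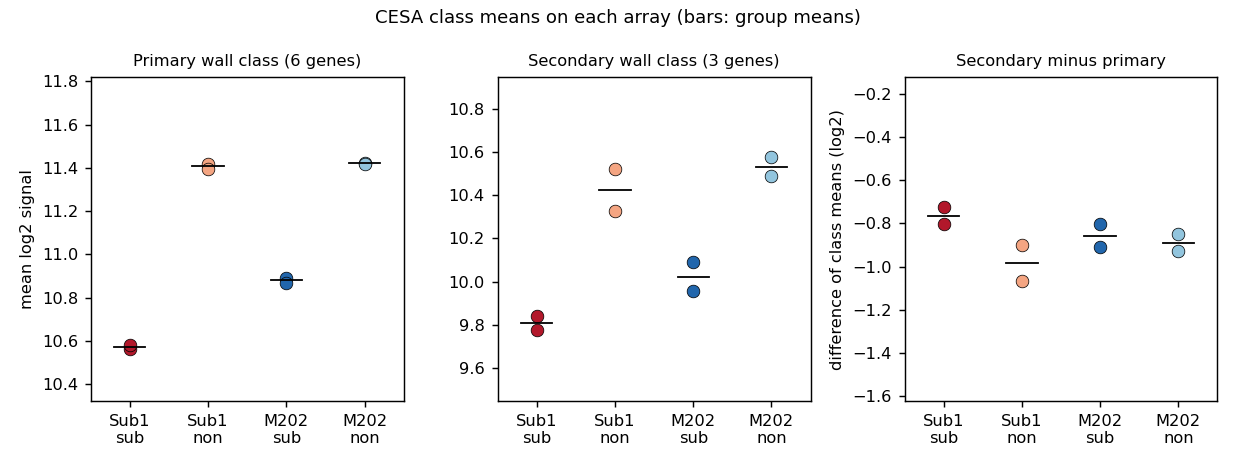
Mean log2 signal of the primary wall class, of the secondary wall class, and the secondary minus primary difference (y axes, all spanning the same range) on each array, with the groups submerged M202(Sub1), non-submerged M202(Sub1), submerged M202 and non-submerged M202 from left to right and bars at group means. Both class means are lower after submergence, and the difference lies between -0.72 and -1.07 on all arrays.

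Before submergence the genotypes did not differ detectably in the family. Of 13 probe sets 0 were called for M202(Sub1) minus M202 in non-submerged plants by limma, where 1.91% of all tested probe sets were called, and the differences ran from -0.20 ± 0.18 for CESA7 to 0.10 ± 0.07 for CESA6. At an unadjusted p below 0.05 limma gave 1 of the 13, the first CESA1 probe set with -0.13 ± 0.05 (limma adjusted p = 0.373). The 95% intervals of CESA1 on its first probe set, -0.24 to -0.01, and of CESA6, -0.07 to 0.27, leave little room for a difference in non-submerged plants as large as the one after submergence. For CESA7 the interval of -0.66 to 0.26 leaves more.

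After 24 h of submergence 3 of 9 genes were lower in M202(Sub1) than in M202, and 0 were higher, with a median difference of -0.17. Among all tested probe sets 10.1% were called lower and 10.6% higher, and the median was 0. With the stricter filter on low values 35.4% of 22903 probe sets were called in either direction, and 5 of 12 CESA probe sets, all lower. CESA1 differed by -0.62 ± 0.05, at 64.9% of the M202 signal (limma adjusted p = 0.00142). Its second probe set had -0.59 ± 0.06 (limma adjusted p = 0.00351). CESA6 differed by -0.54 ± 0.07, at 68.6% (limma adjusted p = 0.0061). CESA3 differed by -0.20 ± 0.04 (limma adjusted p = 0.0179), and this call was lost without replicate 1 of either submerged group (limma adjusted p = 0.0705 and 0.0712) and when only the submerged groups were fitted (0.0918). CESA7 had -0.55 ± 0.18, close to the value of CESA6 but with a wider SE, and was not called (limma adjusted p = 0.0978). It was called with the stricter filter, with quantile normalization and after centring on the spike-ins (limma adjusted p = 0.034, 0.0478 and 0.00169). The other genes had -0.17 ± 0.10 for CESA8, -0.16 ± 0.05 for CESA5, -0.15 ± 0.09 for CESA2, -0.11 ± 0.04 for CESA9 and 0.02 ± 0.07 for CESA4, none of them called. CESA5 was called with quantile normalization (limma adjusted p = 0.0412). After centring on the spike-ins 11 of the 12 informative probe sets were called lower in M202(Sub1), all but the second of CESA3, with 45.9% of all tested probe sets called in either direction. That centring lowers every probe set by the same 0.25 here, and the median of all tested probe sets was then -0.25.

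The interaction asked whether the submergence change itself differed, and is the change in M202(Sub1) minus that in M202. It was lower for 3 of 9 genes and higher for 0, with a median of -0.24. Over all tested probe sets the median was 0.02, and 5.93% were called lower and 6.36% higher. With the stricter filter on low values 22.3% of 22903 probe sets were called in either direction, and 4 of 12 CESA probe sets, all lower. CESA6 had -0.65 ± 0.09 (limma adjusted p = 0.0171), with changes of -1.60 in M202(Sub1) and -0.95 in M202. This call was lost without 3 of the 8 arrays, namely replicate 2 of non-submerged M202 and either array of submerged M202 (limma adjusted p = 0.0526 to 0.0593). CESA1 had -0.50 ± 0.06 on its first probe set (limma adjusted p = 0.0128), and this call was kept without each of the 8 arrays. On its second probe set it had -0.52 ± 0.08 (limma adjusted p = 0.0229), and the call was lost without 6 of the 8 arrays, that is, without any but those of non-submerged M202 (limma adjusted p = 0.0558 to 0.0727).

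CESA3 had an interaction of -0.24 ± 0.05 (limma adjusted p = 0.0458), which was lost without any one of the 8 arrays (limma adjusted p = 0.0648 to 0.124) and was -0.02 ± 0.24 on its second probe set. All 3 genes with a lower interaction as reported belong to the primary wall class, which holds 6 of the 9 genes. After centring on the spike-ins, which lowers all interaction values by 0.21, CESA4 was called lower on its second probe set (-0.50, limma adjusted p = 0.0356). CESA4 is of the secondary wall class. In the secondary wall class CESA7 had -0.35 ± 0.25, with a 95% interval of -0.996 to 0.29 that contains the values of CESA1 and CESA6. CESA4 had 0.06 ± 0.10 on its first and -0.29 ± 0.12 on its second probe set, and CESA9 had -0.03 ± 0.06, with an interval of -0.19 to 0.14 that lies above the values of CESA1 and CESA6. The remaining primary wall genes had -0.24 ± 0.13 for CESA2, -0.07 ± 0.08 for CESA5 and -0.07 ± 0.15 for CESA8. Averaged over the classes, the interaction was -0.11 for the secondary and -0.29 for the primary wall class. The difference of 0.19 between these values was 0.09 when all probe sets of a gene were averaged, and 0.10 to 0.27 without 1 array of non-submerged M202(Sub1).

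Genes that act beside the CESA complex were taken from lists by name, with 1 probe set per gene. Over all tested probe sets 27.7% were called higher and 21.2% lower in M202(Sub1), and 22.9% and 20% in M202. In the list of cellulose deposition and crystallinity 1 of 6 tested genes rose and 2 fell in each genotype, with a median of -0.44 in M202(Sub1) and -0.46 in M202. BC1, a COBRA-like protein that controls cellulose content in the mechanical tissue of rice, had 6.96 and 6.94 in submerged M202(Sub1), against 9.16 and 8.95 in non-submerged M202(Sub1), and 7.72 and 7.77 in submerged M202, against 9.07 and 9.12 in non-submerged M202. BC1 fell, with -2.11 ± 0.08 in M202(Sub1) and -1.35 ± 0.08 in M202, with an interaction of -0.76 ± 0.11 (limma adjusted p = 0.0164). It had the same 3 steps as CESA1 and CESA6, although it is known for secondary walls.

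GLU1, an endo-1,4-beta-glucanase of the KORRIGAN type that acts in cellulose synthesis, moved the other way. It had 10.81 and 10.84 in submerged M202(Sub1), against 9.90 and 9.92 in non-submerged M202(Sub1), and 10.33 and 10.31 in submerged M202, against 9.87 and 9.94 in non-submerged M202. GLU1 rose by 0.92 ± 0.03 in M202(Sub1) and by 0.42 ± 0.03 in M202, with an interaction of 0.50 ± 0.04 (limma adjusted p = 0.0052). GDD1, a kinesin also called BC12 that affects how microfibrils are oriented, fell, with -0.86 ± 0.03 in M202(Sub1) and -0.94 ± 0.03 in M202.

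Sucrose synthases, which release UDP-glucose from sucrose, were the measured genes of the sugar nucleotide list. Of 6 tested, 2 rose and 2 fell in M202(Sub1), and 2 rose and 0 fell in M202, with medians of -0.12 and -0.02. The shares over all tested probe sets were 27.7% higher and 21.2% lower in M202(Sub1), and 22.9% and 20% in M202. SUS4 rose by 3.497 ± 0.03 and SUS2 by 1.15 ± 0.06 in M202(Sub1), and by 3.31 ± 0.03 and 1.29 ± 0.06 in M202. The interaction was 0.19 ± 0.04 for SUS4, -0.74 ± 0.07 for SUS1 and -0.35 ± 0.07 for SUS6 (limma adjusted p = 0.0371, 0.0067 and 0.0454). The second probe set of SUS6 was not called, with -0.10 ± 0.08 (limma adjusted p = 0.545). It was at 2.22 to 2.41 on all arrays, at or close to the common lowest value, and carries no information on the interaction. SUS1 fell in M202(Sub1), where it had 12.35 and 12.40 against 13.24 and 13.20 in non-submerged plants.

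In the list of secondary wall regulators and xylan the 7 measured genes were all glycosyltransferases of family GT43, which builds the xylan backbone. Of these, 1 rose and 3 fell in M202(Sub1), and 2 rose and 3 fell in M202, with medians of -0.18 and 0.05. The shares over all tested probe sets were 27.7% higher and 21.2% lower in M202(Sub1), and 22.9% and 20% in M202. GT43C fell, with -2.87 ± 0.23 in M202(Sub1) and -2.40 ± 0.23 in M202, and GT43A fell, with -1.69 ± 0.06 in M202(Sub1) and -1.34 ± 0.06 in M202. Both thus fell by more than any CESA gene. For the interaction limma called 0 of the 7, against 2 that were lower at an unadjusted p below 0.05. As 12.3% of all tested probe sets were called for the interaction in either direction, 0 of 7 does not set these genes apart.

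CSL genes, which make other wall polysaccharides, did not move in 1 direction. Of 17 tested, 6 rose and 7 fell in M202(Sub1), and 4 rose and 5 fell in M202, with a median of 0 in both. Calls in both directions were common among all tested probe sets as well. There 27.7% were called higher and 21.2% lower in M202(Sub1), and 22.9% and 20% in M202. CSLF2, of the family that makes mixed-linkage glucan, fell, with -1.91 ± 0.29 in M202(Sub1) and -2.24 ± 0.29 in M202. CSLC7 had -0.61 ± 0.06 in M202(Sub1) and -1.36 ± 0.06 in M202, both called lower, with an interaction of 0.75 ± 0.08 (limma adjusted p = 0.00848). CSLC9, of the family that makes the xyloglucan backbone, had 6.14 and 6.19 in submerged M202(Sub1), while its other 6 arrays lay between 4.26 and 4.47. It rose by 1.89 ± 0.08 in M202(Sub1), with an interaction of 1.77 ± 0.11 (limma adjusted p = 0.00227), and CSLE2 had an interaction of 0.77 ± 0.14 (limma adjusted p = 0.0318). CSLE2 rose by 1.70 in M202(Sub1) and 0.93 in M202. Its other probe sets rose by 4.03 and 1.64 in M202(Sub1) and by 3.28 and 1.43 in M202, all called higher. These other probe sets were not called for the interaction (0.75 and 0.21, limma adjusted p = 0.124 and 0.546).

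**Figure D4:**
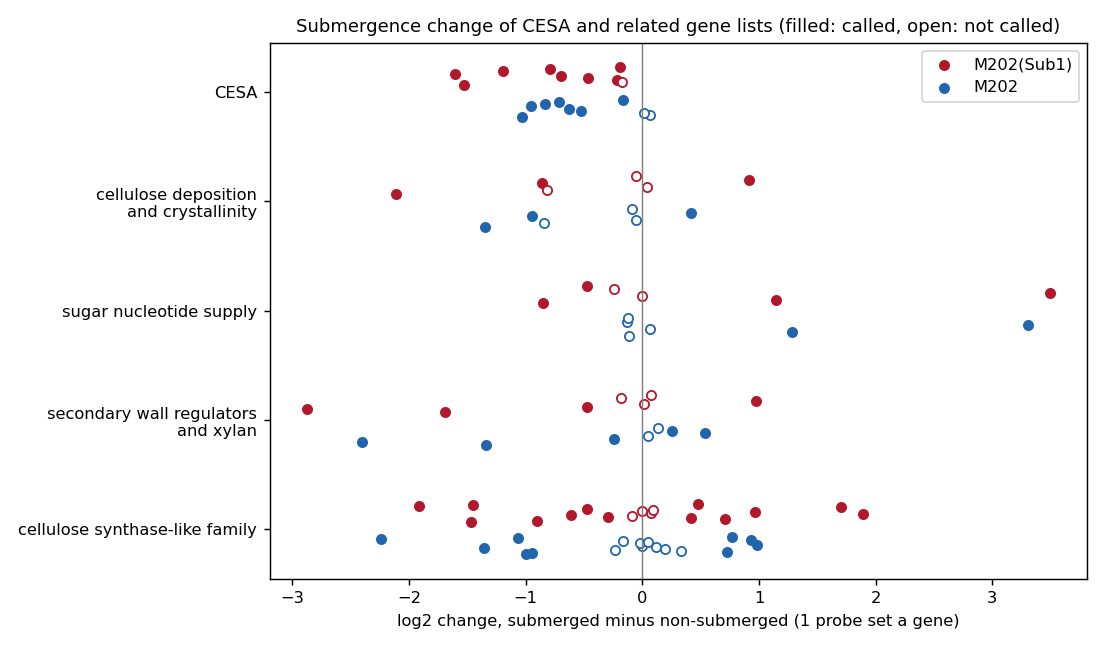
Log2 change on submergence (x axis) of each tested gene, 1 probe set per gene, in the CESA family and in 4 lists of related genes down the page, in M202(Sub1) above M202, filled where called and open where not; the vertical offsets of points only keep them apart. The called CESA points lie left of 0, whereas each of the other lists has called points on both sides.

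The genes whose pattern over the 8 arrays came closest to the class means were looked up among the 100 tested probe sets that carry a RefSeq symbol and are no members. Closeness was the root mean square difference of log2 values after each was centred on its own mean. For the secondary wall class the nearest were VIPP1 at 0.10, CPK23 at 0.11, ASL1 at 0.13, wsl6 at 0.14 and AL1 at 0.17, where the class mean itself had an SD of 0.32. For the primary wall class they were HSFA2D at 0.13, VIPP1 at 0.14, AL1 at 0.15, ASL1 at 0.16 and SNAT1 at 0.16, where the class mean had an SD of 0.39. AL1 came from a different probe set for each class. The one near the primary wall class changed by -1.17 in M202(Sub1) and -0.80 in M202, the other by -0.56 and -0.86. The HSFA2D entry also carries names of acireductone dioxygenases, so its identity is unsure. VIPP1 is known for maintaining thylakoid membranes. The arrays fall into a submerged and a non-submerged set, so any gene lowered by a like amount comes out close.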

How the data were processed

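Transcript levels were measured with Affymetrix rice arrays on 8 samples, 2 per group, grouped by their titles. The authors deposited log2 signals, with 1 value for each probe set on each array. Per the submitters' processing notes GCRMA and MAS5 were used, with no role or version stated. Of 57381 probe sets, 123 are controls, and of the rest 22436 were paired with 1 gene, 95 with several and 34727 with none. All 17905 genes matched the RefSeq table (assembly ASM3414082v1), used for names only. In the lists, 2 entries whose alias belongs to another gene were left out. The number of arrays limits the precision.

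Probe sets with a mean of at least 2.23, the 40th percentile, were tested, which all 13 CESA probe sets reached. A limma model (version 3.58.1, R 4.3.3) had 1 mean per group and an intensity trend, with 4 residual and 0.99 prior degrees of freedom and Benjamini-Hochberg adjustment, and was tested on simulated data. Python 3.11.15, pandas 2.3.3 and matplotlib 3.10.9 made tables and figures. The members and lists were chosen with earlier results of these data known. Named were all members, up to 2 called genes per list and contrast, and the 5 nearest patterns per class. Alternatives varied the trend, filter, normalization, centring, floor, arrays fitted and replicate block.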

Additional observations from a re-analysis of the deposited data

Results flagged for a closer look

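For 3 genes the submergence change was lower in M202(Sub1) than in M202 by limma's test of the difference between the 2 changes. The value was -0.5157 for CESA1 on its second and -0.4974 on its first probe set. On the first, 34.6% of the signal was left in M202(Sub1) and 48.8% in M202. For CESA6 it was -0.6472, with 33% left in M202(Sub1) and 51.6% in M202. For CESA3 it was -0.2375 on its first probe set, with 85.9% left in M202(Sub1) and 101% in M202. On the second CESA3 probe set it was -0.0228 and not called. As given above, the calls of CESA6 and of the second CESA1 probe set were lost without some arrays. That of CESA3 was lost without any 1 of the 8.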

How the results depend on the processing

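Under all alternatives run, no CESA probe set was called higher in any comparison. The counts of lower calls after submergence ranged from 9 to 10 in M202(Sub1) and from 7 to 9 in M202 without 1 array, and were 13 and 11 with arrays centred on their poly(A) controls, or 12 and 11 without the CESA2 probe set at 2.33, whose change there is the centring shift alone. With that centring 79% of all tested probe sets were called in M202(Sub1) and 55.5% in M202, in either direction, with median changes of -0.396 and -0.19. Between genotypes after submergence 45.9% were called with it. The count of CESA probe sets there was 12 with the centring, or 11 without the one at 2.33, and 4 as reported. For the interaction it was 1 to 3 without 1 array, 3 with no filter or with values below log2 4 set to 4, and 4 as reported. With spike-in centring the interaction count was 5, where 15.5% of all tested probe sets were called, against 12.3% as reported. The secondary minus primary wall difference in the interaction was 0.0937 when all probe sets of a gene were averaged. Without 1 array it ranged from 0.10 to 0.27 in the interaction, from 0.14 to 0.30 for submergence in M202(Sub1), and from -0.18 to -0.011 between genotypes in non-submerged plants. The causes were not tested. CESA9 in M202 was no longer called with the stricter filter (limma adjusted p = 0.0706) or when only the groups compared were fitted (0.0756), and CESA9 in M202(Sub1) was not called in that last fit (0.0537). The CESA3 interaction was not called with no filter (0.0863) or with the raised floor (0.0666).

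The replicate numbers are shared by all groups. Same-numbered arrays deviated together at a correlation of 0.008 to 0.18, above 0.1 for 1 of 6 pairs of groups, so they share only a number. With the number as a block (replicate block), the counts of called CESA probe sets were 10 for submergence in M202(Sub1), 8 in M202, 7 and 0 between genotypes in submerged and non-submerged plants, and 4 for the interaction. CESA9 in M202 and the CESA3 interaction were then not called (limma adjusted p = 0.0582 and 0.0716). Newly called lower were CESA7 (0.0174), CESA5 (0.0493) and CESA4 on its second probe set (0.0195) between genotypes in submerged plants, and CESA4 on its second probe set in the interaction (0.0462).

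Sign changes were found only for differences that were not called as reported. With spike-in centring the sign turned in M202 for CESA2 (-0.12) and CESA3 on its first probe set (-0.17). It also turned between genotypes in non-submerged plants for CESA3 (-0.0221 on its second probe set and -0.0097 on its first probe set) and CESA4 on its second probe set (-0.006). For CESA4 on its first probe set it turned in submerged plants (-0.23) and in the interaction (-0.14), and with quantile normalization these were -0.0174 and -0.002. Without 1 array, submergence in M202 gave -0.0329 to 0.16 for CESA2, -0.0063 to 0.0414 for CESA3 on its first probe set and -0.39 to 0.10 on its second probe set. The interaction gave -0.27 to 0.22 for CESA3 on its second probe set, -0.015 to 0.14 for CESA4 on its first probe set, -0.21 to 0.0645 for CESA8 and -0.0628 to 0.0126 for CESA9. Between genotypes in submerged plants it was -0.25 to 0.24 for CESA3 on its second probe set and -0.0429 to 0.0855 for CESA4 on its first probe set. In non-submerged plants it was -0.16 to 0.0126 for CESA1 on its second probe set, -0.0053 to 0.19 for CESA2, -0.0584 to 0.10 for CESA3 on its second probe set, -0.0323 to 0.11 and -0.12 to 0.0363 for CESA4 on its second and first probe sets, and -0.24 to 0.0341 for CESA8. The CESA2 probe set at 2.33 was left out of these values. With 2 arrays a group the SE sets what could be detected, and the probe set of CESA2 near the lowest value gives no signal over background.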

Other observations

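A wider search for like patterns, chosen after seeing the data, used the 2778 tested probe sets whose gene has a name among its RefSeq synonyms. Nearest to the primary wall class were OsrcaA1, the Rubisco activase gene, with a root mean square difference of 0.04 and 0.06 on 2 probe sets, ACLA-2 at 0.05, APX2, a cytosolic ascorbate peroxidase, at 0.05, and THF1 at 0.06. OsrcaA1 changed by -0.82 in M202(Sub1) and -0.51 in M202, where the primary wall class had -0.84 and -0.54. Nearest to the secondary wall class were GRXS4 at 0.05 and GLO5, a glycolate oxidase, GOS5, which also carries the name of photosystem I subunit H, FTSH2, a thylakoid protease, and ISPH, each at 0.07. GRXS4 changed by -0.60 in M202(Sub1) and -0.61 in M202, where the secondary wall class had -0.62 and -0.51.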
